A study of Homo sapiens with 6 samples.

Results

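The long intergenic noncoding RNAs (lincRNAs) that H2452 pleural mesothelioma cells express well were compared between a control population with a scrambled sgRNA (sgCtrl) and a population whose sgRNA targets *NF2* (sg*NF2*-1). The members were the genes annotated as lincRNA with at least 50 raw counts in each of the 6 libraries, without *GAS5*, *ZFAS1* and the *SNHG* genes. This gave 108 genes, of 7629 lincRNA genes in the count table, of which 2525 had a count in any library and 468 could be tested. The names removed 4 genes that met the floor (*SNHG8*, *SNHG15*, *SNHG4* and *SNHG19*). The members were thus chosen by their raw counts, that is by level and not by a difference, but a floor in every library leaves out genes that are low in one group only.

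LincRNAs are transcribed from the stretches between protein-coding genes, and most are capped, spliced and polyadenylated like messenger RNAs. Some stay in the nucleus, where they build nuclear bodies or act on chromatin, others bind proteins in the cytoplasm, and others are the precursors from which microRNAs (miRNAs) or small nucleolar RNAs (snoRNAs) are cut. *NF2* encodes merlin, which restrains the coactivators YAP and TAZ through the Hippo kinases, and it is often lost in pleural mesothelioma.

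The series holds 3 sgCtrl and 3 sg*NF2*-1 libraries of H2452, an established line of this tumour, all grown in RPMI medium with serum. The sgCtrl libraries are labelled *NF2* wild type and the sg*NF2*-1 libraries *NF2* knockout. Both populations carried a lentiviral vector with a U6-driven guide and SFFV-driven Cas9 and mCherry, so the controls also expressed Cas9, and the loss of *NF2* rests on 1 guide in 1 line. The study's methods describe stable cell populations rather than single clones, and the labels do not say whether replicates came from separate cultures, so p-values measure the spread between these libraries only.

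Total counts ranged from 14782423 to 17416463 per library. *NF2* itself was at 71.4 ± 3.36 CPM in sgCtrl and at 44.2 ± 6.77 in sg*NF2*-1 (SD, n = 3), a decrease with an adjusted p of 7.9e-06. CPM is the count of a gene scaled to the TMM-adjusted size of its library. Of the mesothelial markers, *MSLN*, *KRT19*, *PDPN*, *WT1*, *CALB2* and *UPK3B* were detected in each library and *KRT5* was at 0 to 3 counts, while *WT1*, *KRT19* and *PDPN* were lower and *MSLN* was higher in sg*NF2*-1. The leukocyte genes *PTPRC* and *CD68* were at 0 and at 1 to 5 counts, the endothelial gene *VWF* was at 0 to 2 and the epithelial gene *EPCAM* at 0 to 9. The endothelial gene *PECAM1* had 100, 117 and 83 counts in sgCtrl and 19, 26 and 16 in sg*NF2*-1, a log2 fold change of -2.28 (adjusted p = 1.7e-07), and its part in the changes below was not tested. The 108 lincRNAs took 0.364% to 0.424% of all counts. Mitochondrial genes took 2.65% to 3.69% of the sgCtrl counts and 3.67% to 4.67% of the sg*NF2*-1 counts, and the part of this difference in the changes below was not tested. In bulk RNA, fewer cells with a transcript and less of it per cell cannot be told apart.

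Both directions of change were found. With edgeR's quasi-likelihood test fitted over all 14179 tested genes and an adjusted p under 0.05, 20 of the 108 lincRNAs were higher in sg*NF2*-1 (18.5%), beside 17.7% of all tested genes, and 18 were lower (16.7%), beside 16.6%. The other 70 were not called. At the limits taken from the study's methods, an unadjusted p under 0.05 with a log2 change of more than 0.5 either way, 15 were higher (13.9%), where the share over all tested genes was 9.22%, and 10 were lower (9.26%), where it was 10.8%. The CPM values of the groups did not overlap for 44 members (40.7%), beside 45.3% of all tested genes. The sg*NF2*-1 libraries lay above in 29 of them (26.9%), beside 23.2%, and below in 15 (13.9%), beside 22.2%. Among all tested genes with at least 50 counts in each library, the groups did not overlap for 50.1%, with 27% above and 23.1% below. At an adjusted p the shares were thus near those over all genes, while more members were higher at the limits with a size and fewer lay wholly below, differences that were not tested. Among genes at the same floor of 50 counts, 21.5% of protein-coding genes were higher and 18.2% were lower, with 17.5% and 14.6% of antisense genes and 20.4% and 12.2% of processed transcripts. The median log2 fold change of the members was 0.04, beside -0.00 over all tested genes, and single values ran from -1.15 to 1.45.

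**Figure D1:**
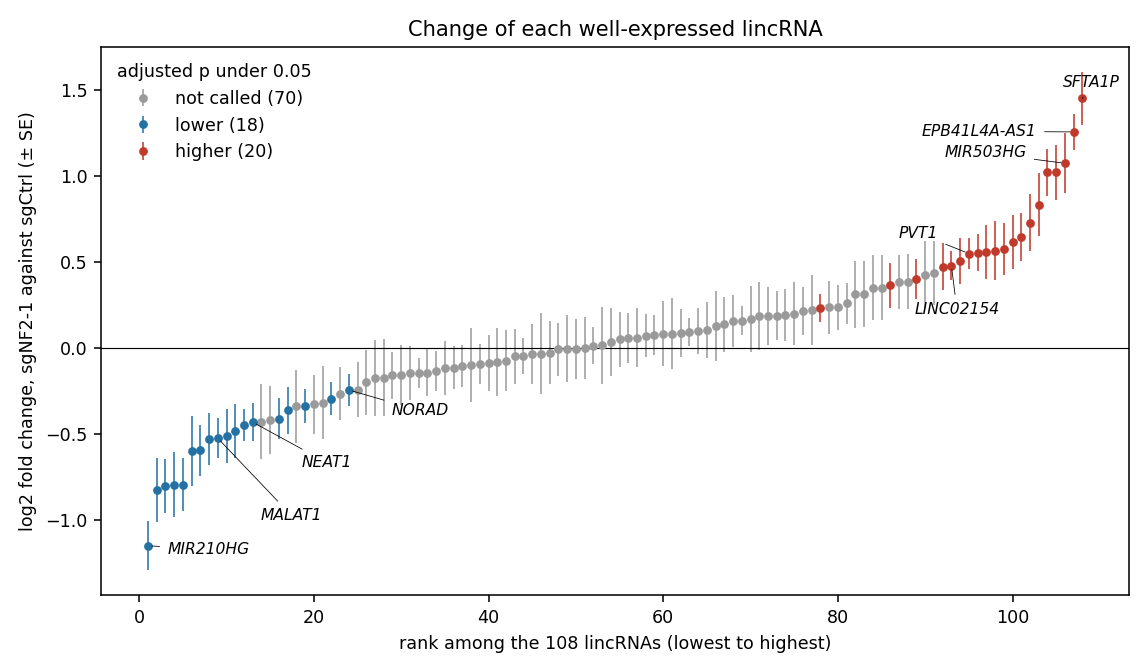
Log2 fold change of each of the 108 lincRNAs in sg*NF2*-1 against sgCtrl, ranked, with bars of 1 SE and colours for the call at an adjusted p under 0.05. The 20 higher members (red) reach 1.45 for *SFTA1P*, the 18 lower members (blue) reach -1.15 for *MIR210HG*, and 70 (grey) were not called.

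The sequences around the starts of some called members, and the miRNAs that several of them contain, are shown here first. RefSeq promoter windows (GRCh38.p14, 250 bases before the start and 50 from it on, so that the start is base 251 of 300) matched 48 of the 108 members by symbol, among them 13 higher and 7 lower members. Of those, 7 are printed: the largest rise and the largest fall with a window (*EPB41L4A-AS1* and *MIR210HG*), 2 starts that lie beside the start of a coding gene (*BAIAP2-DT* and *GAS6-DT*), and 3 chosen for the motif they hold. Each reads 5′ to 3′ along the RNA. Capitals mark, in all 7 windows and on either strand, each match to 4 motifs. ACGTG is the core of the hypoxia response element (in *EPB41L4A-AS1*, *MIR210HG* and *NORAD*), and TGATGNAA is an ATF4 element (in *LINC01133*). TGANTCA is a loose form of the AP-1 element that takes any base at its centre (in *OLMALINC*, where that base is A). GGAATG is the TEAD element, here as its reverse complement (in *NORAD*).
*EPB41L4A-AS1*, chr5:112160276-112160575, strand plus: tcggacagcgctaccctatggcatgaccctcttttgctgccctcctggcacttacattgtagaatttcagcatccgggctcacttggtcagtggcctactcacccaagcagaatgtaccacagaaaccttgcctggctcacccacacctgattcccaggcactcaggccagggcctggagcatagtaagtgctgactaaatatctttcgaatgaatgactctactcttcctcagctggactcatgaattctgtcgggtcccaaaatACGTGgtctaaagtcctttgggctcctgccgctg
*MIR210HG*, chr11:568408-568707, strand minus: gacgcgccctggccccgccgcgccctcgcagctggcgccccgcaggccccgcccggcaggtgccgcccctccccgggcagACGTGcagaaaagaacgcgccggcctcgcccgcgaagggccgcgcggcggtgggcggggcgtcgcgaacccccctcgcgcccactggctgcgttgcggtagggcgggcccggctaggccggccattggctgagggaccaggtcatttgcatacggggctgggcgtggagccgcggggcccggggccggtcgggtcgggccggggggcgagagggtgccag
*BAIAP2-DT*, chr17:81034670-81034969, strand minus: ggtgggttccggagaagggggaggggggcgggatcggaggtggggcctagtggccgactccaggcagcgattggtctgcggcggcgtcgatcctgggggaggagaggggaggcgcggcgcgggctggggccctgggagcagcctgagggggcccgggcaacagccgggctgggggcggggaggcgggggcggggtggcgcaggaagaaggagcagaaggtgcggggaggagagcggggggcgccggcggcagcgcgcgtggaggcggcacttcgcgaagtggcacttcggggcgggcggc
*GAS6-DT*, chr13:113863927-113864226, strand plus: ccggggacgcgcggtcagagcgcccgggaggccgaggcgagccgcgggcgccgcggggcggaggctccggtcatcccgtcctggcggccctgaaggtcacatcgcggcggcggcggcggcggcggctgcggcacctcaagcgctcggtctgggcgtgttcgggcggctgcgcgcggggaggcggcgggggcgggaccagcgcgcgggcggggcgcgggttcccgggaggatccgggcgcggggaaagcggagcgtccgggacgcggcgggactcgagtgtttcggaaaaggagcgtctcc
*LINC01133*, chr1:159960974-159961273, strand plus: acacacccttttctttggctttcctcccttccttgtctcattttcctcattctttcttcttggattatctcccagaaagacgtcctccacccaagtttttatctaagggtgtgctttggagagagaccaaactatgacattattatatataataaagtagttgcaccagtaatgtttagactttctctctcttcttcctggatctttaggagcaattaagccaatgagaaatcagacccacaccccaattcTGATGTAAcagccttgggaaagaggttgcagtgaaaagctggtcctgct
*OLMALINC*, chr10:100373326-100373625, strand plus: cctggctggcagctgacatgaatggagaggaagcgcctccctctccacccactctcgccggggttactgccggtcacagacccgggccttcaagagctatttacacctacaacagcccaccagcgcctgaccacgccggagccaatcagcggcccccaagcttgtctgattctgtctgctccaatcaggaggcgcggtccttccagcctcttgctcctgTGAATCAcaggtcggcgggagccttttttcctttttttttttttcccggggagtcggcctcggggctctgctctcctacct
*NORAD*, chr20:36050911-36051210, strand minus: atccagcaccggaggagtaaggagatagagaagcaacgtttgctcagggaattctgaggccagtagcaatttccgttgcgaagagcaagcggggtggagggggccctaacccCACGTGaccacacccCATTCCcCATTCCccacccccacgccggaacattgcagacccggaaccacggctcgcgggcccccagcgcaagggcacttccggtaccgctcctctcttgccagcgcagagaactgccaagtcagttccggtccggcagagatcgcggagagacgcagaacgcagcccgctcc

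Both strands were searched for each motif, and a match is a description of the letters only. GGAATG stood in 14.0% of all 35116 windows and in 8 of the 48 member windows, of which *LINC00665* was higher and *NORAD* was lower. *NORAD* held it at both bases 128 to 133 and bases 135 to 140, and ACGTG on both strands at bases 113 to 118. TGANTCA stood in 7.71% of all windows and in 6 of 48, with *OLMALINC* as the only called member. TGATGNAA stood in 3.62% and in *LINC01133* alone among the members with a window. ACGTG, chosen after the values were seen, stood in 21.4% of all windows and in 18 of 48, of which 5 were higher and 3 were lower. The *EPB41L4A-AS1* window held 52.3% G and C and 7 CpG pairs, and those of *MIR210HG* and *GAS6-DT* held 80.0% and 79.7% with 44 and 56 pairs.

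The miRNA-bearing members come next. By position on the same strand, 14 members contain an annotated miRNA gene, and 7 of them were called, 2 higher and 5 lower, where the shares over all tested genes were 17.7% higher and 16.6% lower. This difference in shares was not tested. RefSeq gives 14 mature arms for 8 miRNA genes of the called hosts other than *PVT1*, and these have 14 different seeds. No sequence was given there for miR-374a-5p, from *FTX*, or for *MIR612*, in *NEAT1*. Whether those share a seed with the 14 arms could not be seen. One arm of each of the 8 genes is printed for the hosts whose values follow, with the seed (bases 2 to 8) in capitals.
miR-210-3p, in *MIR210HG*, chr11:568112-568133, strand minus: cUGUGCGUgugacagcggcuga
miR-22-3p, in *MIR22HG*, chr17:1713914-1713935, strand minus: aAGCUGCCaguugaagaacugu
miR-503-5p, in *MIR503HG*, chrX:134546371-134546393, strand minus: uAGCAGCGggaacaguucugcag
miR-421, in *FTX*, chrX:74218392-74218414, strand minus: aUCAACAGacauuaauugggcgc
miR-374b-5p, in *FTX*, chrX:74218587-74218608, strand minus: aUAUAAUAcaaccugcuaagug
miR-545-3p, in *FTX*, chrX:74287126-74287147, strand minus: uCAGCAAAcauuuauugugugc
miR-374a-3p, in *FTX*, chrX:74287295-74287316, strand minus: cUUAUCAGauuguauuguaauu
miR-570-3p, in *MUC20-OT1*, chr3:195699460-195699481, strand plus: cGAAAACAgcaauuaccuuugc

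The libraries do not measure these miRNAs. Counts assigned to the miRNA genes themselves, over all 6 libraries, were 46 for *MIR570*, 14 for *MIR210*, 14 for *MIR503* and 6 for *MIR421*. They were 0 for *MIR22*, *MIR374B*, *MIR545* and *MIR374A*, and only the host transcripts are compared here.

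*MIR210HG* (chromosome 11, 565660 to 568457, minus strand), the host of miR-210, which is known as a hypoxia-induced miRNA, fell furthest of all members. Its sgCtrl libraries held 284, 258 and 229 counts, against 119, 120 and 107 for sg*NF2*-1. Every sg*NF2*-1 library lay below every sgCtrl library, and the mean went from 16.3 ± 1.54 to 7.35 ± 0.53 CPM (SD, n = 3). The log2 fold change was -1.15 (standard error, SE, 0.14, adjusted p = 7.9e-07), and it stayed between -1.20 and -1.07 in all 12 alternative count analyses. In a two-sided exact permutation test over the 6 libraries, any gene whose groups do not overlap in this way can reach a p of 0.10 at the smallest.

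*MIR503HG* (chromosome X, 134543337 to 134546632, minus strand), which carries miR-503, moved the other way. Its counts were 190, 132 and 89 in sgCtrl and 342, 273 and 250 in sg*NF2*-1. The sgCtrl libraries were spread widely, at 12.1, 8.04 and 5.86 CPM, but all stayed below the 17.6 to 19.4 CPM of sg*NF2*-1. The log2 fold change was 1.07 (SE 0.17, adjusted p = 3.2e-05), and without sgCtrl replicate 3, the lowest library, it was 0.86.

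*MIR22HG*, the host of miR-22, had 44.5, 45.8 and 42.2 CPM in sgCtrl and 31.9, 38.2 and 35.0 in sg*NF2*-1. The groups did not overlap and the log2 fold change was -0.34 (adjusted p = 0.011), but the call was lost without sgCtrl replicate 2 or without sg*NF2*-1 replicate 1. *FTX*, an RNA of the X-inactivation centre that carries 4 miRNA genes (*MIR421*, *MIR374B*, *MIR545* and *MIR374A*), went from 24.3 ± 1.19 to 18.3 ± 2.07 CPM (SD, n = 3), a log2 fold change of -0.41 (adjusted p = 0.0090) that was no longer called without sg*NF2*-1 replicate 1. *MUC20-OT1*, with *MIR570* inside it, fell by 0.59 on the log2 scale (adjusted p = 0.0030). It shares 1820 bases of exon with *MUC20* on the same strand, and reads of the shared stretch cannot be told apart. *NEAT1* and *PVT1* were the other called miRNA hosts and are described with their own groups.

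The remaining 7 miRNA hosts were not called. *MIR222HG*, the precursor of miR-221 and miR-222, was at 6.45 ± 0.47 CPM in sgCtrl and at 6.30 ± 0.42 in sg*NF2*-1 (SD, n = 3), and *MIR137HG* was at 5.94 ± 0.59 and 5.92 ± 0.68 CPM. *MIR193BHG* had a log2 fold change of -0.27 (adjusted p = 0.19), with 19.4 CPM in sgCtrl replicate 1 and 11.3 to 13.8 CPM in the other libraries. Without sgCtrl replicate 1 it was -0.049. *LINC00472*, the host of miR-30a, had -0.32 (adjusted p = 0.27), and -0.038 without sgCtrl replicate 2 and -0.15 without sg*NF2*-1 replicate 3. *CYTOR*, a mostly cytoplasmic RNA described in many tumours, was lower in each sg*NF2*-1 library (48.8 to 52.0 CPM, beside 55.4 to 57.9), yet its change of -0.14 was not called (adjusted p = 0.22). *MIR4435-2HG* had 0.09 (adjusted p = 0.39) and *MIR4458HG* had 0.09 (adjusted p = 0.66). *CYTOR* and *MIR4435-2HG* are near-identical duplicates, so the authors' counting could have split reads between them.

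The snoRNA hosts were 2. *EPB41L4A-AS1* (chromosome 5, 112160526 to 112164276, plus strand), which carries *SNORA13*, held 487, 407 and 434 counts in its sgCtrl libraries against 1104, 995 and 1056 in sg*NF2*-1. The groups were far apart, at 28.1 ± 3.08 and 67.1 ± 6.15 CPM (SD, n = 3), and the log2 fold change of 1.26 (SE 0.10) had the lowest adjusted p of the members, 1.1e-09. Its exons overlap those of *EPB41L4A* on the opposite strand over 1659 bases. *EPB41L4A* was at 1.54 ± 0.28 CPM in sgCtrl and at 0.88 ± 0.47 in sg*NF2*-1 (SD, n = 3), far below the lincRNA. *LINC02001*, with *SNORD7*, was at 6.84 ± 0.38 and 6.14 ± 0.67 CPM and was not called (adjusted p = 0.52).

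The nuclear RNAs *MALAT1*, a component of nuclear speckles, and *NEAT1*, the scaffold of paraspeckles, were both lower in sg*NF2*-1. They are the only members on a list of 6 nuclear-retained RNAs, of which 4 were tested. *TUG1* (-0.08) and *LINC-PINT* (-0.21), not annotated as lincRNA, were not called. *MALAT1* (chromosome 11, 65497688 to 65506516, plus strand) had 502, 686 and 422 CPM in sgCtrl and 388, 369 and 363 in sg*NF2*-1, a log2 fold change of -0.52 (SE 0.12, adjusted p = 0.00094). *NEAT1* (chromosome 11, 65422774 to 65445540, plus strand) had 482, 473 and 317 CPM in sgCtrl and 315, 322 and 307 in sg*NF2*-1, a log2 fold change of -0.43 (SE 0.11, adjusted p = 0.0035). For *MALAT1* the groups did not overlap, whereas for *NEAT1* sgCtrl replicate 3 lay among the sg*NF2*-1 libraries.

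The size of both differences depended on single control libraries. *MALAT1* was highest in sgCtrl replicate 2, and without it the log2 fold change was -0.31 (adjusted p = 0.022). Without sgCtrl replicate 3 the log2 fold change was -0.60 for *NEAT1* and -0.67 for *MALAT1*, and over all 12 alternative analyses it lay between -0.60 and -0.33 for *NEAT1* and between -0.67 and -0.31 for *MALAT1*, past the threshold in each. Whether the libraries were made from polyadenylated or rRNA-depleted RNA is not given in the sources used here, which matters for these genes because the mature end of *MALAT1* and of the long *NEAT1* form carries no poly(A) tail.

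In the cytoplasm, *NORAD*, which binds PUMILIO proteins and is known for its part in genome stability, had 616, 597 and 499 CPM in sgCtrl and 528, 478 and 440 in sg*NF2*-1. The groups overlapped, since sg*NF2*-1 replicate 1 lay above sgCtrl replicate 3. The log2 fold change of -0.24 (SE 0.09, adjusted p = 0.043) was close to the threshold, and the call was lost in 4 of the 6 analyses that left out a library, where the value ran from -0.33 to -0.18. *LINC00941*, the third member of the list of RNAs with known roles in the cytoplasm, had a log2 fold change of 0.19 (adjusted p = 0.34), and 0.074 without sg*NF2*-1 replicate 2 and 0.096 without sgCtrl replicate 1. Of this list, 3 of 11 genes were members, of which 1 was called. Over all tested genes, 17.7% were higher and 16.6% were lower, and the difference was not tested. Of the tested genes that were not members, *OIP5-AS1* was lower (-0.45), and *DANCR* (0.08) and *TINCR* (-0.46) were not called.

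**Figure D2:**
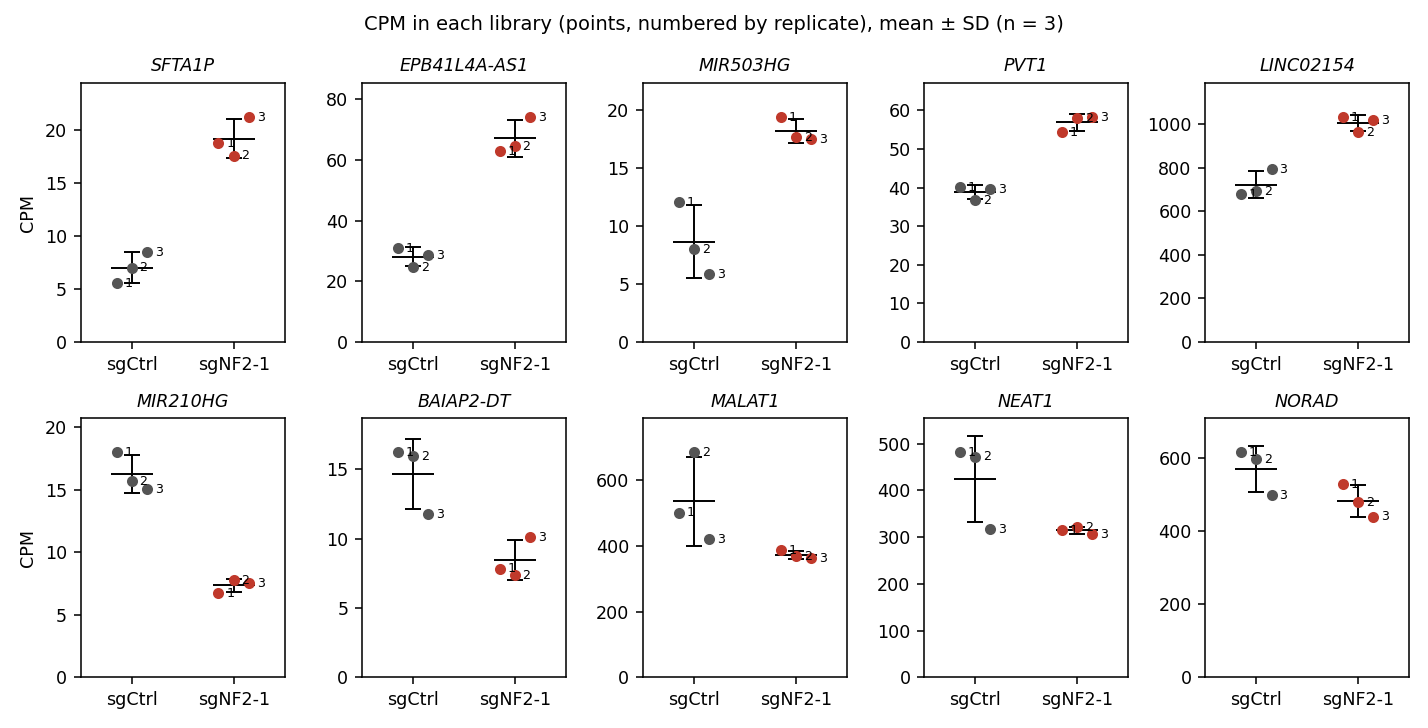
CPM of 10 of the lincRNAs in each library (points, numbered by replicate), with the mean and SD of each group (n = 3) and axes that start at 0. The groups stand apart in every panel except *NEAT1* and *NORAD*, where sgCtrl replicate 3 lies among the sg*NF2*-1 libraries.

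*SFTA1P* (chromosome 10, 10784437 to 10794980, minus strand), named as a surfactant-associated pseudogene, rose furthest. Its counts were 88, 115 and 128 in sgCtrl and 329, 271 and 302 in sg*NF2*-1. The mean went from 7.01 ± 1.43 to 19.2 ± 1.87 CPM (SD, n = 3), 273% of the sgCtrl level, and the log2 fold change was 1.45 (SE 0.15, adjusted p = 5.6e-08). *LINC00707* (chromosome 10, 6779549 to 6879450, plus strand) held 86, 122 and 134 counts in its sgCtrl libraries against 260, 237 and 198 in sg*NF2*-1, with a log2 fold change of 1.02 (adjusted p = 2.0e-05). *LINC02057* (chromosome 5, 61201309 to 61264929, minus strand) held 158, 221 and 230 counts in its sgCtrl libraries against 479, 378 and 379 in sg*NF2*-1, with a log2 fold change of 1.02 (adjusted p = 1.9e-06). In all 3 genes, sgCtrl replicate 1 was the lowest library and no control library reached the sg*NF2*-1 range.

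The other members among the 10 largest increases changed by less. *GAS6-DT* rose by 0.83 on the log2 scale, *LINC02407* by 0.73, *LINC01133* by 0.64, *LINC01583* by 0.62 and *OLMALINC* by 0.58, with adjusted p-values from 0.00082 to 0.0045. *LINC01133*, which has been described as a partner of the splicing factor SRSF6, had 13.1, 11.3 and 17.3 CPM in sgCtrl and 22.5, 20.0 and 22.7 in sg*NF2*-1. These groups did not overlap, although sgCtrl replicate 3 came close.

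*PVT1* (chromosome 8, 127794533 to 128101253, plus strand), the neighbour of *MYC* that is often co-amplified with it in tumours, had 40.2, 36.7 and 39.7 CPM in sgCtrl and 54.4, 58.0 and 58.4 in sg*NF2*-1. The replicates were close together and the log2 fold change was 0.55 (SE 0.09, adjusted p = 5.0e-05). *PVT1* is 1 of 13 members on a list of cancer-associated RNAs, of which 5 were higher (*EPB41L4A-AS1*, *LINC00707*, *LINC01133*, *LINC00665* and *PVT1*), 2 were lower (*NEAT1* and *MALAT1*) and 6 were not called. The uncalled ones were *LINC00467*, *MIR4435-2HG*, *LINC00847*, *CRNDE*, *LINC00973* and *CYTOR*, with log2 fold changes from -0.14 to 0.17. Over all tested genes, 17.7% were higher and 16.6% were lower, and the difference from these shares was not tested. The list held 21 tested genes. Of those that were not members, *LUCAT1*, *MIAT* and *CASC2* were lower and the rest were not called. The full list thus held more decreases than the members alone, and no further increase. *LINC00665* had 7.74, 12.2 and 11.5 CPM in sgCtrl and 13.1, 16.5 and 16.9 in sg*NF2*-1, with a log2 fold change of 0.56 (adjusted p = 0.0083) that was not called without sgCtrl replicate 1. The list of p53-responsive RNAs held 2 members, *PVT1* and *NEAT1*, and its other tested genes, *TP53TG1* and *LINC-PINT*, were not called. That of stress-responsive RNAs held 2 members, *NEAT1* and *MIR210HG*, both lower. Its other tested genes went both ways: *LUCAT1* was lower (-1.49), *HCG18* was higher (0.35) and *LINC00520* (0.98) was not called.

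Among the larger decreases besides *MIR210HG*, 4 had similar sizes. *AL139220.2* held 190, 152 and 158 counts in its sgCtrl libraries against 76, 96 and 107 in sg*NF2*-1, with a log2 fold change of -0.82 (adjusted p = 0.0012). *BAIAP2-DT* held 256, 262 and 179 counts in its sgCtrl libraries against 138, 114 and 144 in sg*NF2*-1, with -0.80 (adjusted p = 0.00034). *AC002401.4* held 115, 125 and 104 counts in its sgCtrl libraries against 62, 75 and 60 in sg*NF2*-1, with -0.79 (adjusted p = 0.0020). For each of them every sg*NF2*-1 library was below every sgCtrl library.

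*AL136985.3* (-0.79) lies 9493 bases from *JUN*, which encodes a subunit of the AP-1 transcription factor. It had 13.4, 11.5 and 13.3 CPM in sgCtrl and 8.52, 7.26 and 6.11 in sg*NF2*-1 (adjusted p = 0.00031). *AC105277.1*, on the same stretch of chromosome 1, is a more abundant RNA, with 152, 162 and 199 CPM in sgCtrl and 124, 120 and 132 in sg*NF2*-1 and a log2 fold change of -0.45 (adjusted p = 0.00053). *LINC01358*, the third member near it, was at 8.06 ± 1.83 and 9.16 ± 0.35 CPM (SD, n = 3) and was not called (adjusted p = 0.42). The groups stood apart for the first 2 genes and overlapped for the last.

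*LINC00342* (-0.60), *AC008124.1* (-0.53) and *LINC01355* (-0.51) completed the 10 largest decreases. Each had a low count, and each lost its call when sgCtrl replicate 1 was left out, where the values were -0.45, -0.42 and -0.42. *LINC00342* also lost it in 3 other analyses that left out a library.

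By level, the members covered a wide range. FPKM, which divides the count by exonic length and by depth, allows levels of different genes to be set side by side. The mean over the 6 libraries had a median of 3.32 FPKM over the members, with 10 members under 1 FPKM, 78 from 1 to 10 and 20 at 10 or more. *LINC02154* (chromosome X, 13266048 to 13303452, minus strand) stood at 523 FPKM, rank 48 of all genes in the table. *NORAD* followed with 93.0, *AC105277.1* with 80.1, *MALAT1* with 48.7 and *LINC00839* with 26.5 FPKM, and *AC009414.2*, *LINC02057*, *AL161431.1*, *NEAT1* and *SFTA1P* were between 20.3 and 14.9 FPKM.

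*LINC02154* also changed. It had 680, 692 and 794 CPM in sgCtrl and 1034, 963 and 1021 in sg*NF2*-1, and the groups did not overlap. The log2 fold change was 0.48 (SE 0.09, adjusted p = 0.00011), and it stayed between 0.44 and 0.56 in all 12 alternative analyses. It alone held 16.7% to 21.3% of the counts of all members in sgCtrl and 24.6% to 26.0% in sg*NF2*-1. Together with *NORAD*, *MALAT1* and *NEAT1* it made up 54.3% to 58.9% of the members' counts in each library. Of the 10 most abundant members, *LINC00839* and *AC009414.2* were not called, and *AL161431.1* had a log2 fold change of -0.29 (adjusted p = 0.021) with overlapping groups, a call that was lost without sgCtrl replicate 2, where it was -0.19, and without sg*NF2*-1 replicate 1.

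**Figure D3:**
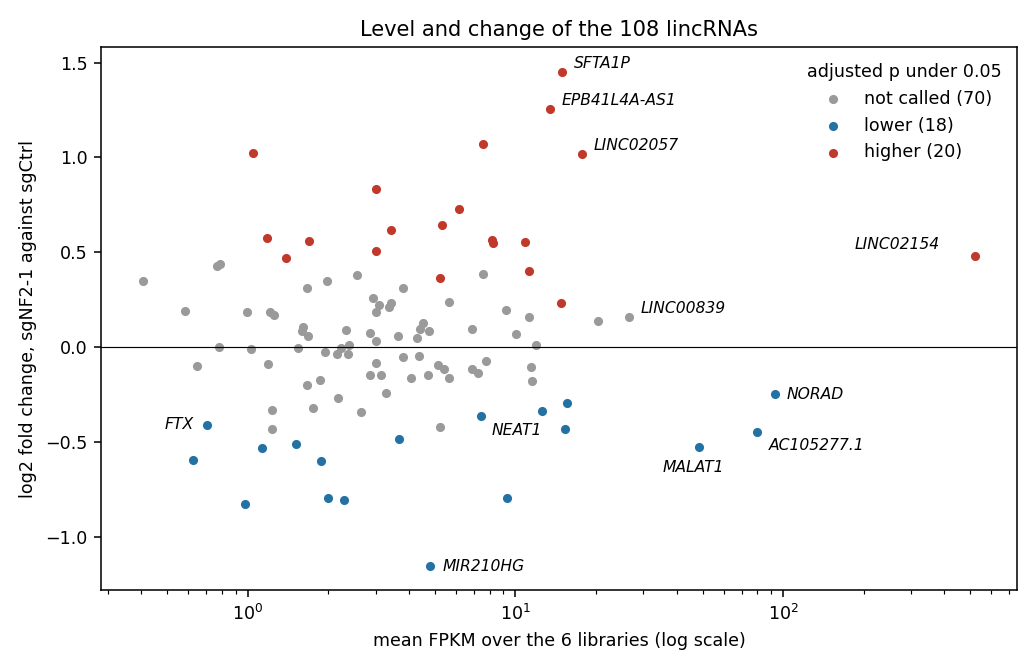
Mean FPKM over the 6 libraries (log scale) against the log2 fold change in sg*NF2*-1 against sgCtrl for the 108 lincRNAs, coloured by the call at an adjusted p under 0.05. *LINC02154* at 523 FPKM stands far to the right of the others and was higher, while *NORAD*, *AC105277.1* and *MALAT1*, next in level, were lower.

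Level and length were not closely related to the change. Across the 108 genes, which share the same 6 libraries and are not independent replicates, Spearman's rho was 0.08 between mean FPKM and log2 fold change and -0.11 between exonic length and log2 fold change. Members with under 2000 bases of exon had 8 higher and 2 lower of 30, those from 2000 to under 5000 bases had 5 and 7 of 42, and those of at least 5000 had 7 and 9 of 36. Beside them, 17.7% of all tested genes were higher and 16.6% were lower. Differences between these lengths were not tested.

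Calls were also counted by kind of name. Of 28 members with a LINC number, 8 were higher and 2 were lower, with a median log2 fold change of 0.13. Of 38 members known only by a clone name, 1 was higher and 8 were lower, with a median of -0.01. Over all tested genes, 17.7% were higher and 16.6% were lower. These counts were compared after their values were seen and were not tested. Exons of 18 members overlap those of a coding gene, and *EPB41L4A-AS1* and *MUC20-OT1* were the called ones. Among the 90 without such an overlap, 19 were higher and 17 were lower.

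Because many lincRNAs lie beside coding genes, each member was set beside its nearest tested protein-coding gene. Of the 38 called members, 16 had a called neighbour, 9 in the same direction (3 higher and 6 lower) and 7 in the opposite one. *JUN* counts here both with *AL136985.3* and with *AC105277.1*. Called in either direction were 34.3% of all tested genes and 39.7% of protein-coding genes with at least 50 counts in each library. The difference from these shares was not tested. Over all 108 pairs, 63 had the same sign of change, and Spearman's rho was 0.12 as a description across genes. Gene bodies lay within 50 kb or overlapped in 90 pairs, where both genes were called in 12, 7 of them in the same direction. The called pairs farther apart were *PVT1* with *MYC* (53099 bases), *AC105277.1* with *JUN* (98541), *AL161431.1* with *IRS2* (474186) and *LINC00707* with *PFKFB3* (524905).

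The pairs that rose together include the largest changes. *CELF2*, which encodes a splicing regulator and starts 3417 bases from *SFTA1P* in the opposite direction, rose from 11.3 ± 1.57 to 26.0 ± 2.28 CPM (SD, n = 3), a log2 fold change of 1.20, beside 1.45 for *SFTA1P*. *MYC* rose from 159 ± 1.28 to 335 ± 6.67 CPM (SD, n = 3), a log2 fold change of 1.07, beside 0.55 for *PVT1*. *GAS6*, which encodes a ligand of the AXL receptor family and starts 101 bases from *GAS6-DT*, had a log2 fold change of 0.28, beside 0.83 for *GAS6-DT*, and the call of *GAS6* was lost without sgCtrl replicate 2.

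The pairs that fell together were *AL136985.3* and *AC105277.1* with *JUN* (-0.39), *MIR210HG* with *RASSF7* (-0.51), *NORAD* with *EPB41L1* (-0.68), *AC008124.1* with *ARID2* (-0.42) and *MUC20-OT1* with *MUC20* (-0.92). *MUC20*, a weakly expressed gene at 2.48 ± 0.92 CPM in sgCtrl (SD, n = 3), lost its call in 6 of 12 alternative analyses, and *ARID2* lost it in 4.

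In 7 pairs the directions were opposite. *SLC6A9*, which encodes a glycine transporter and starts 1024 bases from *AL139220.2* with overlapping gene bodies, rose from 44.1 ± 1.22 to 87.0 ± 6.56 CPM (SD, n = 3), a log2 fold change of 0.98 beside -0.82 for the lincRNA. *BAIAP2*, which encodes an actin regulator and starts 241 bases from *BAIAP2-DT*, had 0.27 (adjusted p = 0.013, a call lost without sgCtrl replicate 2 or without sg*NF2*-1 replicate 3) beside -0.80. *SCD*, the stearoyl-CoA desaturase gene near *OLMALINC*, went from 654 ± 11.1 to 499 ± 24.0 CPM (SD, n = 3), a log2 fold change of -0.39 beside 0.58. The rest were *LINC00707* with *PFKFB3* (-0.50), *LINC01133* with *TAGLN2* (-0.37), *LINC00665* with *ZFP14* (-0.82) and *AL161431.1* with *IRS2* (0.60). The call of *ZFP14* was lost in 5 of 12 alternative analyses, with DESeq2 (adjusted p = 0.052) and in 4 of those that left out a library.

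**Figure D4:**
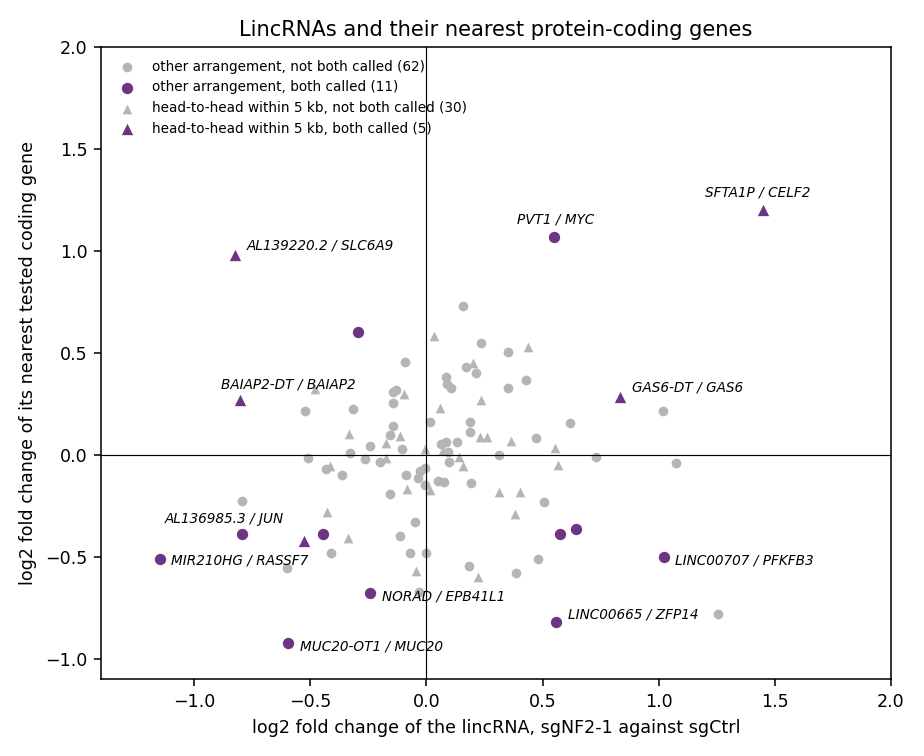
Log2 fold change of each of the 108 lincRNAs (horizontal) and of its nearest tested protein-coding gene (vertical) in sg*NF2*-1 against sgCtrl, with triangles for the 35 pairs that start head-to-head within 5 kb and purple for the 16 pairs in which both were called. Purple points stand in all 4 quadrants: 9 pairs share a direction and 7 do not.

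Starting head-to-head within 5 kb of the nearest tested coding gene was common, in 35 members. Nearest was set by the gap between gene bodies, so head-to-head starts with any other gene were not counted. Of the 35 members, 12 were called, beside 34.3% of all tested genes. In 5 of these 12 pairs the coding gene was called too, 3 in the same direction. Among protein-coding genes with at least 50 counts in each library, 39.7% were called. These shares were not compared by a test. Where the coding partner was not called, the lincRNA could still change. The following examples were chosen after their values were seen. *NUP50-DT* had 21.1, 22.5 and 19.7 CPM in sgCtrl and 31.6, 31.6 and 29.7 in sg*NF2*-1, with a log2 fold change of 0.55 (adjusted p = 0.00029), whereas *NUP50*, which starts 60 bases away, had 0.03. *FENDRR*, which lies opposite the developmental transcription factor gene *FOXF1*, had 94.5, 103 and 97.1 CPM in sgCtrl and 115, 119 and 112 in sg*NF2*-1, a log2 fold change of 0.23 (adjusted p = 0.028) beside 0.09 for *FOXF1*. This call was lost in 3 of the 6 analyses that left out a library. *SCAMP1-AS1* had 0.40 (adjusted p = 0.0087) beside -0.18 for *SCAMP1*.

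The floor of 50 counts decided which genes were described. The members just inside it were *AC092368.3* and *AC078846.1*, with 50 counts in their lowest library, *AC040977.1* with 52, and *AL391244.3* and *APTR* with 53. The lincRNAs just outside were *FAM111A-DT* with 49, *AC012306.2*, *LINC02009* and *LINC00346* with 48, and *AC006504.5* with 47. A further consequence of a floor in every library is that 21 lincRNAs that met it in all sgCtrl libraries and 16 that met it in all sg*NF2*-1 libraries were not members. The following examples were also chosen after their values were seen. *LINP1* held 38, 32 and 35 counts in its sgCtrl libraries against 107, 106 and 94 in sg*NF2*-1, *AC027288.1* had 10, 7 and 14 and then 74, 55 and 67, and *IGFL2-AS1* had 70, 56 and 74 and then 25, 16 and 13. The floor therefore left out changes larger than any among the 108 members, such as the log2 fold changes of 2.65 for *AC027288.1* and -1.89 for *IGFL2-AS1*.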

How the data were processed

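Per the labels, total RNA of 3 sgCtrl and 3 sg*NF2*-1 samples of H2452 cells was made into libraries with a NEBNext Ultra kit and sequenced as paired-end reads. The authors deposited whole-number counts per gene, without normalization, and FPKM values, which the authors scaled by gene length and depth. The submitters' processing notes name HISAT2, StringTie 1.3.3b, featureCounts 1.5.0-p3 and the build hg38, with no role or order. Whether counting used strand is not given in the sources used here, so overlapping and antisense genes cannot be told apart. The positions of all 108 members equal those in GENCODE 29 (GRCh38).

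Genes passing edgeR's filterByExpr, with a minimum count of 10 and a minimum total of 15, were scaled by TMM and fitted with the quasi-likelihood model, with Benjamini-Hochberg adjustment over 14179 genes (R 4.3.3, edgeR 4.0.16). Every adjusted p in the text is from this test unless another is named. Alternatives used DESeq2 1.42.0 and, for log2(FPKM + 1), limma 3.58.1. On simulated counts of these libraries, edgeR recovered 80.5% of 190 genes changed 2-fold among 13925 genes, 97.7% of the 132 at the floor of 50 counts, and called 11 of 13735 unchanged genes. Changes smaller than 2-fold, as most called members had, were not simulated, so their recovery is not known. Total counts from 14782423 to 17416463 set the depth.

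The members, lists and tests were chosen with earlier results of these data known. Named members are the 10 that rose most and the 10 that fell most among called members with groups apart, the 10 with the highest FPKM, list members, hosts of miRNA or snoRNA genes, members on chromosome 1 from 54 to 98 Mb, and 5 on each side of the floor. Their coding neighbours are named too, as are some tested genes of the lists that were not members. The text marks other genes as picked with their values in view.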

Additional observations from a re-analysis of the deposited data

How the results depend on the processing

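Of 104 comparison values recomputed, 90 stayed within the limits set for them and 14 moved. With limma on log2(FPKM + 1), 10 members were lower at an adjusted p, 8 were higher and 4 were lower at the study's limits, where edgeR gave 18, 15 and 10. Without a filter these were 4, 8 and 4, and 11 were higher at an adjusted p, where edgeR gave 20. With a pseudocount of 0.1, 10 were lower at an adjusted p. The cause was not tested. Other floors change the number of members: with at least 30 counts (160 members) 16 were lower at the study's limits, with at least 100 counts (66 members) 9 were higher and 5 were lower, and with a mean of at least 50 counts 16 were lower. Head-to-head neighbours alone gave 3 pairs with the same direction, from fewer pairs. Leaving out each library gave 17 to 20 higher and 12 to 18 lower members at an adjusted p, 13 to 18 higher and 8 to 15 lower at the study's limits, and 5 to 9 pairs with the same direction, with 5 without sgCtrl replicate 2, where the cause was not tested.

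Of 792 values for 66 single genes, 739 kept their direction and call, 34 lost the call and 19 changed sign, each of a gene that was not called. Leaving out a library moved the log2 fold change from -0.071 to 0.19 for *LINC00847*, -0.091 to 0.013 for *MIR222HG*, -0.25 to 0.092 for *LINC00973*, -0.21 to 0.17 for *AC092368.3*, -0.23 to 0.069 for *AC078846.1*, -0.069 to 0.088 for *AL391244.3* and -0.079 to 0.087 for *MIR137HG*. With library totals, *AL391244.3* was at -0.013. *MIR137HG*, at 0.00, was at -0.0034 with DESeq2, -0.0027 with its size factors, -0.024 with library totals and -0.0071 with at least 10 counts in every library. Of the 38 called members, 25 were called in every count alternative. *TRAM2-AS1* and *AL365203.2*, outside the named members, lost the call in 6 and 7.

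The replicate numbers did not pair the samples: deviations from the group means correlated at -0.03, 0.06 and 0.05 for the same number. With a replicate block, 20 members rose and 18 fell at an adjusted p, 14 and 9 at the study's limits, and 10 pairs shared a direction. *MIR137HG* was at -0.00058 with the block.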
